A study of Mus musculus with 6 samples.

Results

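The genes described here encode 7 subunits of the GABA-A receptor, the chloride channel that opens when it binds the neurotransmitter GABA. They are the alpha subunit genes Gabra2, Gabra3 and Gabra5, the beta subunit genes Gabrb1 and Gabrb2, and the gamma subunit genes Gabrg1 and Gabrg3. They were taken by gene symbol through the mouse Ensembl identifiers, not by their values, and were 7 of 41388 genes in the count tables. The tables also hold 12 other genes of the receptor family, which enter below only as a sum and as counts. RNA was sequenced from dorsal root ganglion (DRG) cells that were sorted by flow cytometry for a Ret-EGFP reporter; the donors were embryos of the mouse strain C57BL/6 aged 18.5 dpc (days post coitum). Ret is the receptor tyrosine kinase of the GDNF family ligands. The genotype label is Tg(Ret-EGFP)SJ, whereas the series description gives EGFP knocked into 1 Ret allele, and every library, female or male, carries the same reporter. The ganglia of the males and of female A came from levels T11 to S1, per their labels. There were 3 female libraries, A from 60 ganglia of 3 embryos and B and C from 20 ganglia of 1 embryo each. The 3 male libraries were A from 60 ganglia of 3 embryos and C and D from 40 ganglia of 2 embryos each. No treated arm was part of the data used here, and sex is the grouping the labels give.

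A GABA-A receptor is a ring of subunits around a chloride pore, most often built from alpha, beta and gamma subunits. GABA binds where a beta and an alpha subunit meet, benzodiazepines bind where an alpha and a gamma subunit meet, and gamma subunits take part in holding receptors at synapses. Sensory neurons of the DRG keep a high internal chloride concentration, so GABA depolarizes them. This primary afferent depolarization at their central terminals is known as a form of presynaptic inhibition.

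The sequences below show how near the 7 genes are to each other. They are the coding bases of the Cys-loop, the disulphide-closed loop that names this receptor superfamily, read from GENCODE M21 transcripts on GRCm38, 5′ to 3′ on the coding strand. Capitals mark the codons of both cysteines that close the loop.
Gabra2 (chr5:71012720-71012764, minus strand): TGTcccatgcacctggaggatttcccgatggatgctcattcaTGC
Gabra3 (chrX:72476245-72476289, minus strand): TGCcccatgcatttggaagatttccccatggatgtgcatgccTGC
Gabra5 (chr7:57452964-57453008, minus strand): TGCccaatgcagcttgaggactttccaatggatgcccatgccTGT
Gabrb1 (chr5:72029846-72029890, plus strand): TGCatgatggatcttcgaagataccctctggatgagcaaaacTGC
Gabrb2 (chr11:42529431-42529475, plus strand): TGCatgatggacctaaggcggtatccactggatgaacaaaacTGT
Gabrg1 (chr5:70780669-70780713, minus strand): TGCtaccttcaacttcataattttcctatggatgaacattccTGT
Gabrg3 (chr7:56982644-56982688, minus strand): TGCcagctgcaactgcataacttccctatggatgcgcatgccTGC

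Each stretch has 45 bases and lies in 1 coding exon. Gabra2 shares 36 of the 45 bases with Gabra3 and 34 with Gabra5, Gabrb1 shares 35 with Gabrb2, and Gabrg1 shares 35 with Gabrg3. Across classes, Gabra3 and Gabrg3 share 34, as many as Gabra2 and Gabra5. The pair with the fewest shared bases is Gabra3 and Gabrb2, with 22. No stretch of at least 150 bp at 95% identity or more was found in another gene for the longest transcripts of Gabra2, Gabra3, Gabrb1, Gabrb2, Gabrg1 and Gabrg3. In Gabra5 such stretches cover 5.77% of the longest transcript.

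The genes lie in 4 places of the genome. Gabrg1 (70751047 to 70842617, minus strand), Gabra2 (70961057 to 71095849, minus strand) and Gabrb1 (71699932 to 72138389, plus strand) lie near each other on chromosome 5 of GRCm38. Gabrg3 (56716465 to 57387188, minus strand) and Gabra5 (57407690 to 57510009, minus strand) are close on chromosome 7. Gabrb2 (42419757 to 42629028, plus strand) is on chromosome 11 and Gabra3 (72432681 to 72656848, minus strand) is on the X chromosome. Exons of Gabra5 overlap those of the antisense gene Gm9962 by 148 bp in GENCODE M21, and exons of Gabrb1 those of Gabra4 by 46 bp. Whether the counting used strand was not stated in the labels.

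Total counts were 19615536 to 21734364 in the 3 female libraries and 17861500 to 29330101 in the 3 male libraries. Sensory neuron transcripts were abundant, with Stmn2 at a mean of 5294 CPM (counts scaled to the library total, with TMM factors) and Ret at 181 CPM, and 8 of 8 listed neuron markers were detected. RNA of glia and fibroblasts was present too. The marker sums were highest in male A. There the 5 fibroblast markers summed to 2662 CPM against 463 to 616 CPM in the other 5 libraries. The 8 glial markers summed to 1595 CPM against 878 to 1067 CPM. Not all markers went that way. The glial markers Fabp7 (337 CPM) and S100b (54.2 CPM) were lowest in male A. The fibroblast marker Dcn (288 CPM) lay within the range of the other libraries. The spinal cord markers Slc32a1 and Mnx1 had no counts. The library labelled male C held Xist at 58.9 CPM, against 111 to 197 CPM in the female libraries and 0.418 and 0.575 CPM in males A and D. It held the Y-linked Ddx3y at 57.1 CPM, against 48.9 and 202 CPM in males A and D. The female libraries had 0.0913 to 0.400 CPM of Ddx3y. Whether the male C pool of 2 embryos held both sexes was not tested, and it is counted as male, as labelled. The log2 changes between the sexes of the receptor genes described are therefore given with and without males A and C. Shares and gene lists were compared between the sexes with all libraries only, males A and C included.

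All 7 genes were detected in all 6 libraries, and Gabra2 was the highest of them in each library. Levels are CPM per kilobase of the deposited exon length (RPKM, with TMM factors), so they can be compared between genes. Gabra2, whose subunit is concentrated at many inhibitory synapses, had 33.3, 45.8 and 55.9 RPKM in females A, B and C, against 12.7, 24.4 and 49.9 RPKM in males A, C and D. The female range lay within that of the males apart from female C, and male A was the lowest library. The mean over 6 libraries was 36.99 ± 16.5 RPKM (SD, n = 6), above 88.8% of the 14958 genes tested, and the counts behind it were 580 to 2670 per library.

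Gabra3, on the X chromosome, was the next in level. It had 6.56, 6.84 and 5.31 RPKM in females A, B and C, against 2.24, 6.25 and 5.14 RPKM in males A, C and D. Apart from male A, its libraries lay close together, and its mean was 5.39 ± 1.69 RPKM (SD, n = 6). Gabra5, whose subunit is known from receptors outside synapses in the hippocampus, had 1.36, 3.09 and 1.00 RPKM in females A, B and C, against 0.453, 1.41 and 1.39 RPKM in males A, C and D. Female B stood above the other 5 libraries and male A below them, a 6.81-fold range. It rested on 23 to 148 counts per library, for which counting error alone gives a coefficient of variation of 13.1%, against the 60.8% observed.

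The beta genes were both low. Gabrb1 had 1.12, 0.860 and 0.988 RPKM in females A, B and C, against 0.727, 1.20 and 2.09 RPKM in males A, C and D, with 43 to 135 counts per library. The female libraries lay close together, within the wider range of the males. Gabrb2 was the lowest of the 7 genes, with 0.468, 0.443 and 0.337 RPKM in females A, B and C and 0.268, 0.502 and 0.284 RPKM in males A, C and D. It was also the least variable in relative terms, with a coefficient of variation of 26.1% on 32 to 99 counts per library.

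Of the gamma genes, Gabrg1 was higher in each female than in each male library. It had 2.39, 4.81 and 2.43 RPKM in females A, B and C, against 1.27, 1.00 and 1.46 RPKM in males A, C and D. Of all tested genes, 8.06% likewise did not overlap between the sexes, 4.18% with females above males. Female B was the highest library for Gabrg1. Gabrg3 had 0.841, 0.501 and 0.554 RPKM in females A, B and C, against 0.315, 0.597 and 1.17 RPKM in males A, C and D. Males A and D held its lowest and its highest level, with the females between them. The coefficients of variation over 6 libraries were 62.7% for Gabrg1 and 45.3% for Gabrg3, and the median over all tested genes was 25.3%, below the value of each of the 7 genes.

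**Figure D1:**
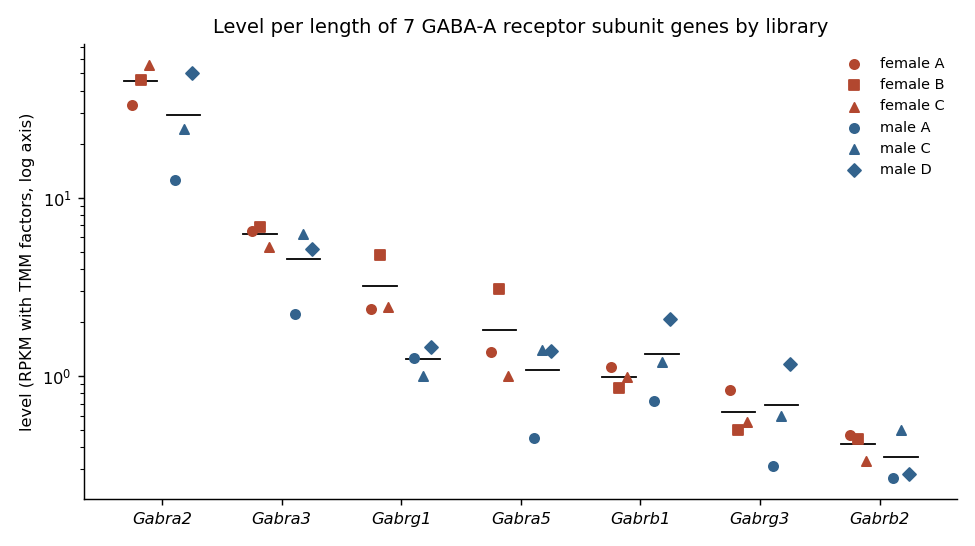
Level of each gene (vertical axis, RPKM with TMM factors, logarithmic) in each library, genes ordered by their mean over 6 libraries, with females on the left and males on the right of each gene and a bar at the mean of 3 libraries. Gabra2 lies above the other 6 genes in every library. In Gabrg1 the 3 female points lie above the 3 male points, as in 4.18% of all tested genes.

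Ordered by mean level per length, the genes ran Gabra2, Gabra3, Gabrg1, Gabra5, Gabrb1, Gabrg3 and Gabrb2. Neighbours in that order were compared within libraries with a two-sided exact sign-flip permutation test on log2(RPKM + 0.1), adjusted over 6 pairs by the Benjamini-Hochberg method. The pairs follow from the ranking of the same values, and the smallest p that 6 libraries allow is 0.0312. Gabra2 was above Gabra3 by 2.68 ± 0.55 log2 units (SD, n = 6, exact adjusted p = 0.0469), in 6 of 6 libraries. Gabra3 was above Gabrg1 by 1.34 ± 0.73 log2 units, Gabrb1 above Gabrg3 by 0.75 ± 0.21 and Gabrg3 above Gabrb2 by 0.59 ± 0.60, each in 6 of 6 libraries and with the same exact adjusted p. Gabrg1 and Gabra5 were not separated (0.59 ± 0.68 log2 units, higher in 5 of 6 libraries, exact adjusted p = 0.112), nor were Gabra5 and Gabrb1 (0.18 ± 0.84 log2 units, 4 of 6 libraries, exact adjusted p = 0.781).

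The lower end of this order and the lead of Gabra2 over Gabra3 depend on the length assigned to the genes. The deposited exon length is 2392 bp for Gabra2 and 3089 bp for Gabrb1, whereas the exons of GENCODE M21 cover 7640 bp and 13838 bp, and reads in the added exon sequence were not counted. Divided by the longest transcript of that annotation, the means were 15.1 ± 6.75 RPKM for Gabra2 and 0.262 ± 0.109 RPKM for Gabrb1 (SD, n = 6). Gabra3 was at 5.77 ± 1.81 RPKM on that scale. Gabra2 was above it by 1.30 log2 units (exact adjusted p = 0.0469), against 2.68 with the deposited length. Gabrb1 then lay below Gabrg3 by -1.28 log2 units (exact adjusted p = 0.0469) and was the lowest of the 7 genes. On that scale Gabra5 was above Gabrb1 by 1.95 log2 units (exact adjusted p = 0.0469), and Gabrg3 and Gabrb2 were no longer separated (0.31 log2 units, exact adjusted p = 0.281), while Gabra2, Gabra3, Gabrg1 and Gabra5 kept the first 4 ranks. The level of Gabrb2 was 0.600 ± 0.157 RPKM on that scale, above Gabrb1. Because the deposited counts leave out reads beyond the shorter exons, dividing them by the longest transcript understates both Gabra2 and Gabrb1. Gabrb2 goes the other way. Its counts cover 6246 bp of deposited exons and are divided by a longest transcript of 3989 bp, which raises its level. The order of Gabrb1 and Gabrb2 on that scale therefore reflects these unlike lengths. Whether the added exons are transcribed was not tested.

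**Figure D2:**
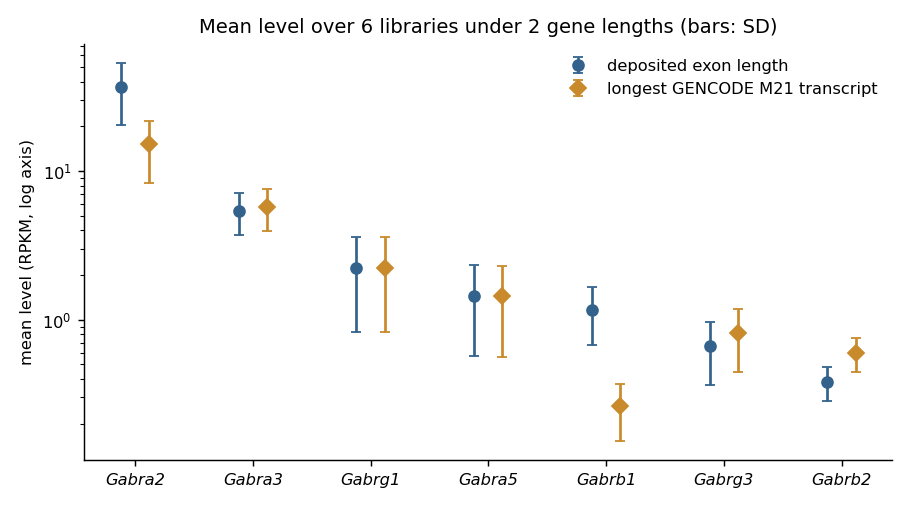
Mean level over 6 libraries (vertical axis, RPKM, logarithmic; bars are SD) with the deposited exon length (circles) and with the longest GENCODE M21 transcript (diamonds). Gabrb1 stands at 1.17 RPKM with the first and 0.262 RPKM with the second, and Gabra2 is the highest gene with both.

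Within each class, 1 gene of those described took most of the signal. Shares are of the summed counts per kilobase of the 3 alpha, 2 beta or 2 gamma genes in a library. Gabra2 took 84.3 ± 4.88% of the alpha signal in females and 82.3 ± 6.14% in males (SD, n = 3 each), with 76.1% to 89.9% over the 6 libraries. Gabra3 took 12.2 ± 3.69% in females and 14.4 ± 5.18% in males, and Gabra5 3.48 ± 1.97% in females and 3.27 ± 0.998% in males. Gabrb1 took 70.4 ± 4.30% of the beta signal in females and 77.2 ± 9.48% in males, and male D, at 88.1%, was the highest library. Gabrg1 took 82.0 ± 8.31% of the gamma signal in females and 66.1 ± 12.7% in males, with 90.6% in female B and 55.5% in male D as the extremes. Gabra2, Gabrb1 and Gabrg1 were thus the leading alpha, beta and gamma transcript of the 7 genes in 6 of 6 libraries.

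No share passed the test between the sexes. The largest difference was that of Gabrg1, 15.9 percentage points higher in females (exact permutation p = 0.2, adjusted p = 0.7 over 7 genes, two-sided). With 3 libraries against 3 this exact test cannot go below p = 0.1. With the longest transcript as length Gabrb1 took 30.4% of the beta signal, less than Gabrb2, whereas Gabra2 still led the alpha genes with 66.3%. As described above, that length lowers Gabrb1 and raises Gabrb2, so it does not settle which beta gene leads. In plain counts, not divided by length, Gabrb1 took a mean of 58.7 ± 10.3% (SD, n = 6). In female B it had 48 counts against 50 for Gabrb2. The 7 genes together held 41.4%, 52.9% and 56.9% of the summed RPKM of all 19 receptor subunit genes in females A, B and C, and 35.6%, 40.6% and 45.1% in males A, C and D. The shares therefore describe these 7 transcripts against each other and not the make-up of the receptors, and RNA levels do not show which subunits are assembled together.

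**Figure D3:**
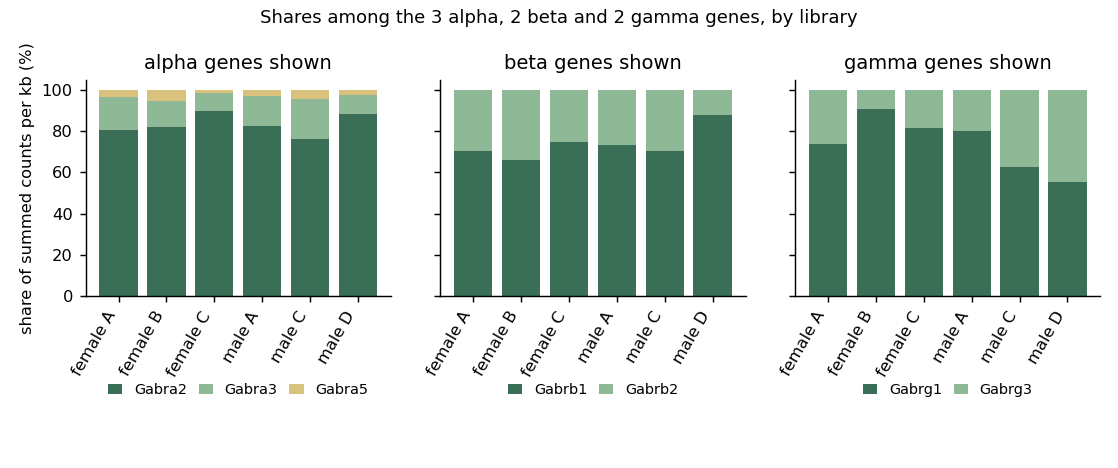
Share of each gene in the summed counts per kilobase (vertical axis, percent) of the alpha, beta and gamma genes described, by library, females to the left of males. Gabra2, Gabrb1 and Gabrg1 hold the largest part in each of the 6 libraries, and the share of Gabrg1 runs from 55.5% in male D to 90.6% in female B.

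Female and male libraries were compared to see whether the sex of the embryo, which the study recorded, went with subunit levels. None of the 7 genes passed the threshold in edgeR's quasi-likelihood test, with Benjamini-Hochberg adjustment over 14958 genes and adjusted p under 0.05 as the threshold. Over all tested genes 4 were called, or 0.0267%. Of the 7 genes, 5 were higher and 2 lower in females, with a median log2 change of 0.45, against a median over all tested genes of 0.00. Of the 7, 1 had an unadjusted p under 0.05 and was higher in females; 4.42% of all tested genes had such a p, 2.9% with the higher level in females. DESeq2 and limma voom likewise called 0 of the 7. In bulk RNA, fewer cells that express a gene and less RNA per cell cannot be told apart.

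The gene with the small p was Gabrg1, at 3.21 ± 1.39 RPKM in females and 1.24 ± 0.229 RPKM in males (SD, n = 3 each). Its log2 change, female minus male, was 1.37 with a standard error of 0.34 (edgeR quasi-likelihood test, adjusted p = 0.961). The unadjusted p of that edgeR test, which had no record set term, was 0.00289. It was the one gene of the 7 whose sexes did not overlap, and 8.06% of all tested genes did not overlap, 4.18% with females above males. Over the 17 other settings its log2 change lay between 0.94 and 1.54 and its adjusted p between 0.152 and 1, so the direction held while the test was not passed. All males and female A are in record set 1, described below, and females B and C in record set 2. With record set as a further term the log2 change was 0.95 (edgeR unadjusted p = 0.0709), and within record set 1 it was 0.94. Both values rest on female A as the only female of record set 1. Record set 2 against record set 1, without a sex term, gave a log2 change of 1.24. Without males A and C the change between the sexes was 1.13, against 1.39 without male A and 1.23 without male C. The summed sensory neuron markers were at 12616 to 17727 CPM in females and 12699 to 13812 CPM in males, with 1 of 8 markers higher in each female than in each male library. The summed glial markers were at 878 to 1067 CPM in females and 939 to 1595 CPM in males. The part of either in the Gabrg1 values was not tested.

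The other 6 genes had no p under 0.05, adjusted or not, in the same edgeR test. The log2 change was 0.63 with a standard error of 0.43 for Gabra2, 0.45 with 0.35 for Gabra3, 0.73 with 0.54 for Gabra5 and 0.23 with 0.39 for Gabrb2. It was -0.43 with a standard error of 0.42 for Gabrb1 and -0.13 with 0.45 for Gabrg3. Their edgeR adjusted p ranged from 0.961 to 0.994. These values depended on which libraries were included. For Gabra2 the log2 change was 0.28 without male A, 0.52 without male C and -0.16 without both, and 1.28 without male D, in which it was 49.9 RPKM. The X-linked Gabra3 had a log2 change of 0.13 without male A, 0.76 without male C and 0.27 without both. For Gabra5 it was 0.37 without male A, 0.97 without male C and 0.37 without both, and 0.12 without female B. For Gabrb2 it was 0.07 without male A, 0.59 without male C and 0.54 without both. Without males A and C the log2 change was -1.09 for Gabrb1 and -0.89 for Gabrg3. Male D, in which both genes are highest, is then the only male library. It was -0.72 for Gabrb1 and -0.47 for Gabrg3 without male A, and -0.51 and -0.23 without male C. The fit without both libraries holds no spread among males, so only its log2 changes are given here.

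**Figure D4:**
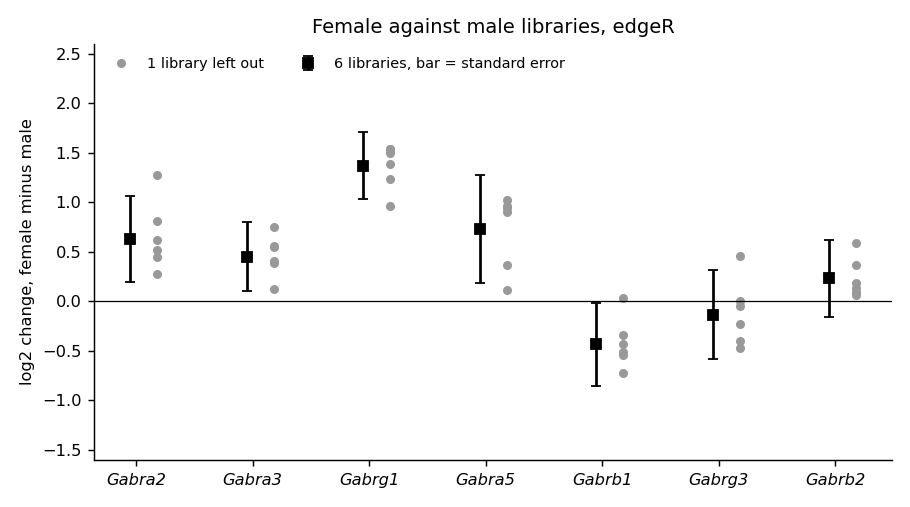
Log2 change of each gene, female minus male (vertical axis), from edgeR with all 6 libraries (squares, bars are standard errors) and with 1 library left out at a time (grey circles). The 6 values for Gabrg1 with a library left out stay between 0.96 and 1.54, while those of Gabrb1 and Gabrg3 fall on both sides of 0.

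Females B and C, each from 1 embryo, have labels of another form than the remaining 4 libraries. They are referred to as record set 2 and those 4 as record set 1. All males are in record set 1, so with sex in the model the comparison rests on females B and C against female A, a single library, whose spread is taken to be that of the other libraries. With that model none of the 7 genes passed the edgeR test between record set 2 and record set 1 (0 called, 0 with an unadjusted p under 0.05; DESeq2 also called 0). Over all tested genes edgeR called 0, or 0%, and 3.23% had an unadjusted p under 0.05. The log2 changes, record set 2 minus record set 1, were 0.61 for Gabra2, 0.60 for Gabrg1, 0.59 for Gabra5, -0.11 for Gabra3, -0.26 for Gabrb2, -0.28 for Gabrb1 and -0.67 for Gabrg3, with standard errors of 0.51 to 0.88. Leaving out female B moved the change of Gabra5 to -0.44 and that of Gabrg1 to 0.03. The record set and the number of embryos in a library cannot be told apart here.

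Male A was the lowest library for 6 of the 7 genes, the exception being Gabrg1, which was lowest in male C. Of all tested genes, 28.3% were lowest and 31.1% highest in male A. The summed sensory neuron markers of male A, 12915 CPM, lay within the range of the other libraries, while its fibroblast and glial sums, given above, were the highest, and their part in these low levels was not tested. Female B was the highest library for Gabra3, Gabra5 and Gabrg1, male D for Gabrb1 and Gabrg3, female C for Gabra2 and male C for Gabrb2.

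To compare the patterns over libraries, each gene's log2 CPM was centred on its mean over the 6 libraries and the root mean square difference between genes was taken. Among the 7 genes, Gabrb1 and Gabrg3 were the most alike, at 0.24 log2 units, followed by Gabra3 and Gabrb2 at 0.36. The genes of either pair lie on different chromosomes. The nearest of about 10473 genes with a mean of at least 5 CPM were Cdh7 (0.14) and Atxn1 (0.15) for Gabra2, Cntnap3 (0.07) and Mme (0.09) for Gabra3, and Thy1 (0.11) and Car2 (0.16) for Gabra5. They were Smc6 (0.13) and Spred2 (0.15) for Gabrb1, Nbas and Trpm2 (0.10 each) for Gabrb2, Smim17 (0.16) and Maf (0.21) for Gabrg1, and Senp6 (0.11) and Zfp229 (0.12) for Gabrg3. The genes within 2 times the smallest distance numbered from 5 for Gabra3 to 121 for Gabrb1. With 6 libraries these names are a description only.

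Genes that act with the receptor were also measured. Of 22 genes for assembly, transport and anchoring of the receptor, all 22 were tested and 0 were called between the sexes, with 10 higher and 12 lower in females, a median log2 change of -0.05 and 0 with an unadjusted p under 0.05. The highest levels among them were those of Gabarap, which binds gamma subunits and microtubules, at 284 ± 28.4 RPKM, the kinesin heavy chain gene Kif5a at 199 ± 40.1 RPKM and Gabarapl1 at 95.9 ± 6.03 RPKM (SD, n = 6). The postsynaptic scaffold gene Gphn, which encodes gephyrin, and Lhfpl4, which encodes a partner that brings receptors to synapses, were named after their values were seen. Gphn stood at 27.3 ± 3.72 RPKM and Lhfpl4 at 20.1 ± 2.75 RPKM.

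Genes that make, move and break down GABA differed widely in level. Of 11 genes of GABA synthesis, transport and breakdown, 7 were tested and 0 were called between the sexes (4 higher and 3 lower in females, median log2 change 0.20, 0 with an unadjusted p under 0.05). The glutamine transporter gene Slc38a1 was at 10.8 ± 2.11 RPKM and the GABA transaminase gene Abat at 8.28 ± 1.31 RPKM (SD, n = 6). Of the genes for the GABA-synthesizing enzyme, both named once their values were known, Gad1 stood at 0.264 ± 0.160 RPKM with 256 counts in all, against a mean of 0.383 RPKM and 324 counts for Gabrb2, while Gad2 had 7 counts over the 6 libraries, and the vesicular GABA transporter gene Slc32a1 had none.

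Of 9 genes that set the chloride gradient, 8 were tested and 0 were called between the sexes (4 higher and 4 lower in females, median log2 change 0.03, 0 with an unadjusted p under 0.05). Slc12a2, which encodes the chloride importer NKCC1, was at 12.8 ± 4.18 RPKM, and its activating kinase genes Stk39 and Oxsr1 at 11.4 ± 3.82 RPKM and 7.51 ± 1.36 RPKM (SD, n = 6). Slc12a5, which encodes the neuronal chloride exporter KCC2, ranged over 0.0191 to 0.0558 RPKM, with 30 counts over the 6 libraries.

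Of 7 neurosteroid synthesis genes, whose products modulate the receptor, 4 were tested and 0 were called between the sexes (2 higher and 2 lower in females, median log2 change 0.00, 0 with an unadjusted p under 0.05). The mitochondrial cholesterol-binding protein gene Tspo was at 16.4 ± 7.01 RPKM, the steroid reductase genes Srd5a1 and Srd5a2 at 9.85 ± 1.84 and 1.07 ± 0.720 RPKM (SD, n = 6). The side-chain cleavage enzyme gene Cyp11a1 had no counts. Slc12a5, Cyp11a1 and Glra1 were likewise named with their values known.

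The glycine receptor, the other inhibitory chloride channel, had 5 subunit genes in the tables, of which 2 were tested and 0 were called between the sexes (both higher in females, median log2 change 0.49, 0 with an unadjusted p under 0.05). Glrb, the beta subunit, was at 3.45 ± 1.42 RPKM and Glra2 at 1.16 ± 0.479 RPKM (SD, n = 6), while Glra1 was at a mean of 0.0563 RPKM. Of the 12 other GABA-A and GABA-C subunit genes, 8 were tested and 0 were called, with 4 higher and 4 lower in females, a median log2 change of -0.01 and 0 with an unadjusted p under 0.05. In the record set comparison edgeR called 0 genes of these lists, with 1 assembly gene and 1 other subunit gene at an unadjusted p under 0.05.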

How the data were processed

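Per the labels, 10 ng of RNA from sorted cells was reverse transcribed and amplified (SMARTer ultra low input kit). The submitters' processing notes name Subread, featureCounts 1.4.5 and GRCm38.p2. The authors deposited raw counts per gene, CPM (counts scaled to the library total) and RPKM (CPM per kilobase of exon); both were recomputed from the counts with a largest difference of 4.5e-11, and only counts and lengths were used. Of 41388 identifiers, 40254 had a symbol. A count of 0 allows up to 0.102 to 0.168 CPM (3 counts, counting error only). Reads carry no molecular identifiers.

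Levels used edgeR 4.0.16 with TMM factors (0.922 to 1.08). The sexes, and record sets with sex as a term, were compared with edgeR's quasi-likelihood test in R 4.3.3 (filterByExpr on sex, 14958 genes, Benjamini-Hochberg). The code was tested on simulated counts without an outlying library and of lower dispersion than the common 0.097 of these data. That run does not show how the test performs in these data. DESeq2 1.42.0, limma 3.58.1 (voom), other scalings, filters and terms, and leaving out each library were alternatives. Library pairs of a sex differed beyond counting noise in 56.9% to 81.2% of genes, so none were counted as 1. The libraries come from different embryos per the labels. The genes and lists were chosen with earlier results of these data known. Named genes were the 7 members, the 3 highest and any called gene of each list, and 2 genes per member by likeness. Some subunit and list genes are not reported here.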

Additional observations from a re-analysis of the deposited data

How the results depend on the processing

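The number of the 7 genes called was 0 under every one of the 17 other settings between the sexes and the 11 between record sets. Plain library totals, chosen like the fit without males A and C after the data were seen, put the median change over all tested genes at -0.12 log2 units between the sexes, and changes are given relative to TMM. Over all tested genes, 4 were called between the sexes; the count was 14 without a low-count filter, 13 by DESeq2, 1 by limma voom, 0 with record set as a term, 0 in record set 1 only, and 0 to 5 with 1 library left out (0 without female A). Between record sets it was 0, against 3 without a low-count filter, 3 without the sex term, 13 by DESeq2 and 115 in females only; without female A that contrast could not be fitted. The replicate letters A and C occur in both sexes, but nothing ties them (correlation of deviations -0.08 for A and 0.05 for C); with the letter as a block 77 genes were called, none of the 7, with 1 residual degree of freedom. Changes of sign, female minus male, were seen for Gabrg3 (main -0.13): 0.029 by limma voom, -0.47 to 0.46 with 1 library left out (0.46 without male D, 0.01 without female B), 0.64 with the block, 0.28 with record set as a term and 0.28 in record set 1 only. For Gabrb1 (main -0.43) the range with 1 library left out was -0.72 to 0.032 (above 0 without male D), with 0.17 under the block, and for Gabra2 -0.16 without males A and C. Without males A and C Gabrb1 (-1.09) and Gabrg3 (-0.89) kept their sign. Between record sets Gabra3 was at 0.26 and Gabrb2 at 0.029 without the sex term. With 1 library left out Gabra3 ran from -0.30 to 0.061 (without female C) and Gabra5 from -0.44 (without female B) to 1.18. The causes were not tested. Of the 6 neighbouring pairs of levels 4 passed; with 1 library left out 0 can pass, since 5 libraries allow no p below 0.0625. The difference of Gabra5 over Gabrb1 ran from -0.13 (without female B) to 0.33 and was 1.95 (now passing) with the longest transcript, Gabrg3 over Gabrb2 was 0.31 (no longer passing), and Gabrb1 over Gabrg3 was -1.28 with that length. Counting error alone gives Gabra5, Gabrb1 and Gabrb2 coefficients of variation of 13.1%, 12.2% and 14.6%, below the 60.8%, 41.7% and 26.1% observed.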
